A study of Mus musculus with 5 samples.

Results

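Ddx3x, Ddx5 and Ddx17, 3 RNA helicases of the DEAD-box family, were followed across 5 RNA-seq libraries of mouse embryonic fibroblasts (MEFs, connective-tissue cells cultured from embryos). The genes were chosen by name, and each was found at 1 of the 61082 loci of the deposited tables. Ddx3x (XLOC_057972) and Ddx17 (XLOC_015537) each had a locus of their own. Ddx5 (XLOC_006590) shared its locus with Polg2, which encodes the accessory subunit of the mitochondrial DNA polymerase, and with the microRNA gene Mir3064, so every Ddx5 value below belongs to the joined locus. The fibroblasts differed in the homeobox transcription factors Meis1 and Prep1 (gene Pknox1). The 4 hypomorphic lines, in which a Prep1 allele gives less of the protein, comprised cells overexpressing Meis1 (M), cells labelled as overexpressing Prep1 (P), cells labelled as overexpressing both (MP), and cells infected with an empty vector (EV). Wild-type cells (WT) formed the fifth group. Per the labels all lines were C57BL/6 at passage 30, from E14.5 embryos. The growth text of the WT sample names hypomorphic embryos as for the other lines, whereas its genotype label reads wild type. Each group held 1 library, so no value has a replicate error, no difference was tested, and every comparison is between libraries. WT carries no vector per its label, so against WT the genotype, the line of origin and the infection cannot be told apart.

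DEAD-box proteins use ATP to unwind short RNA duplexes and to remodel complexes of RNA and protein. Ddx5 (p68) and Ddx17 (p72) are close paralogs that act in splicing, in microRNA processing with Drosha, and as co-regulators of transcription factors. Ddx3x acts in translation initiation and mRNA export and, beyond RNA, in innate immune and Wnt signalling. Ddx3x and Ddx5 have been described as protein partners of Meis1 in fibroblasts, a property that RNA levels do not measure. Whether the RNA levels of the helicases differ with Meis1 and Prep1 is the question these comparisons address.

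Because Meis1 and Prep1 bind DNA, the 250 bases before the start of each helicase gene are shown, with RefSeq windows on the GRCm38.p6 build. Capitals mark matches to any of 4 motifs searched on both strands: TGACAG (the hexamer of Meis and Prep proteins), TGANTCA (AP-1), TGACGT (the half-site of CREB-type factors) and CCAAT.
Ddx3x (chrX:13280772-13281021, plus strand): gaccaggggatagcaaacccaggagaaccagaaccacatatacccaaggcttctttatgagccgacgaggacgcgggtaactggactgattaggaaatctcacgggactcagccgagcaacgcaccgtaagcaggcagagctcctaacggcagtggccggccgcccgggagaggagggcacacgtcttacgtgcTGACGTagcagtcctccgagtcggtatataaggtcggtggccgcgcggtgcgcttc
Ddx5 (chr11:106788495-106788744, minus strand): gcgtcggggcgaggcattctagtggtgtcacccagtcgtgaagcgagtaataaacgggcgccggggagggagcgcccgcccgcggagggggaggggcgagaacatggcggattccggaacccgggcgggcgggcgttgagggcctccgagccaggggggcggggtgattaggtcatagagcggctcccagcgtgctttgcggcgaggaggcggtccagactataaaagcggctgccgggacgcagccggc
Ddx17 (chr15:79546742-79546991, minus strand): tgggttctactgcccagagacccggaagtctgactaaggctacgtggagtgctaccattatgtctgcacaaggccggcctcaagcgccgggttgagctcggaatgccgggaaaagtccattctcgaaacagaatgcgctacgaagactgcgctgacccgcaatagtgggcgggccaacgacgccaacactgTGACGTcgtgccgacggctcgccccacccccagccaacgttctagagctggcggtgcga

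The letters TGACGT occurred once before Ddx3x, with the first base at position -56 from the start, and once before Ddx17, at position -59. Of 32851 windows of this length in the mouse table, 6.47% held TGACGT. Neither TGACAG, held by 15.9% of windows, nor TGANTCA, held by 6.75%, nor CCAAT, held by 33.8%, was found in these 3 windows. For Ddx5 and Ddx17 the table held 3 and 2 windows, and the one nearest to the start of the principal GENCODE transcript was taken. Positions are counted from the RefSeq start of the window. That start lay 52 bases from the principal transcript start for Ddx3x, 38 for Ddx5 and 0 for Ddx17. No binding was measured here, so a match or its lack only describes these letters.

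The libraries stood on very different overall levels, with upper quartiles of 429 FPKM (fragments per kilobase, scaled to the fragments mapped) in M and 157 in EV, against 9.63 to 12.2 in the others. Each library was therefore scaled so that its upper quartile, over the 22338 single-gene loci that reached 1 FPKM in some library, was set to 10, and levels are given in these scaled units. Pknox1 stood at 3.25 in M, 0.554 in the library labelled P, 0.569 in the library labelled MP, 2.16 in EV and 11.0 in WT. The libraries labelled P and MP thus had the lowest Pknox1 levels, against their labels, and directions drawn from them carry that limit. Meis1 was high where the labels put it, at 16.8 in M and 15.4 in the library labelled MP, against 8.86 in the library labelled P, 8.32 in EV and 12.4 in WT. Fibroblast markers were present in every library, with 7 loci such as Col1a2 and Thy1 between 2.56 and 22.3 units. Epithelial, endothelial and skeletal muscle markers summed to at most 1.80, 1.64 and 0.853 units in any library. Blood markers at single-gene loci summed to at most 3.75 units, nearly all from Csf1r. The blood marker Cd68 shared a locus with Eif4a1 and Senp3, at 18.2 to 26.9 units, so its own level is unknown. Neural markers summed to 19.3 units in M and up to 25.0 in EV. Most of that came from Nes (11.4 to 16.7) and Tubb3 (5.05 to 12.0), which lay within the range of the fibroblast markers.

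Ddx5, the p68 helicase, had the highest level of the trio in every library. Its joined locus stood at 29.1 units in M, 28.4 in the library labelled P, 30.8 in the library labelled MP, 30.6 in EV and 23.9 in WT. The 4 hypomorphic lines lay close together and WT lay below them, and the highest level was 1.29 times the lowest. Set among the 22338 loci, the Ddx5 locus would rank 41st from the top in M, 20th and 29th in the libraries labelled P and MP, 39th in EV and 45th in WT. It led all 42 DEAD-box loci in each library except EV, where the locus joining Ddx23, a splicing helicase, with Rnd1 stood at 31.4.

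Ddx17, the p72 paralog of Ddx5, varied most. It stood at 19.1 units in M, 16.9 in the library labelled P, 23.5 in the library labelled MP, 21.6 in EV and 14.6 in WT. The library labelled MP was highest and WT lowest, a span of 1.61-fold. By rank it was 336th from the top in M, 349th in the library labelled P, 89th in the library labelled MP, 187th in EV and 673rd in WT.

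Ddx3x, the translation and signalling helicase encoded on the X chromosome, stood at 20.8 units in M, 14.7 in the library labelled P, 18.2 in the library labelled MP, 19.0 in EV and 13.5 in WT. Here M was highest and WT again lowest, a span of 1.54-fold, although with median scaling the library labelled MP was above M (log2 0.18). Its ranks were 210th in M, 818th and 351st in the libraries labelled P and MP, 410th in EV and 1144th in WT. All 3 helicases therefore stood above at least 94.9% of the loci in every library. Upper loci were compressed, with the 99th percentile at 1.75 to 2.10 times the upper quartile. Small differences in level thus moved these ranks far, and the spans are those of compressed values. Without replicates, no neighbours in these orders can be said to differ beyond their spread. In bulk RNA, a lower level in every cell and a smaller share of expressing cells cannot be told apart.

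**Figure D1:**
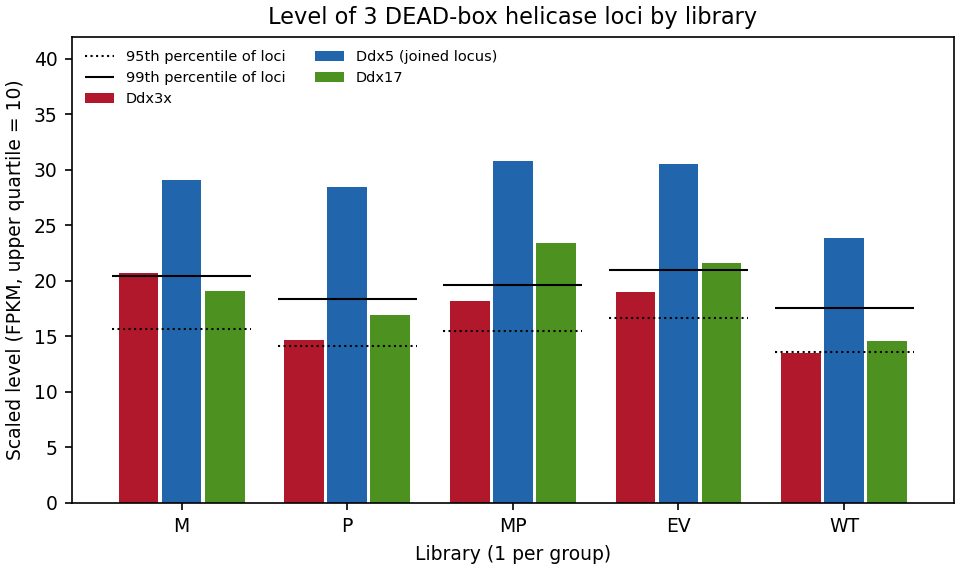
Scaled level (FPKM with the upper quartile of loci set to 10) of Ddx3x, Ddx5 and Ddx17 as bars in the 5 libraries, 1 per group, with the 95th (dotted) and 99th (solid) percentiles of 22338 loci. Ddx5 lies above the 99th percentile in every library, between 23.9 and 30.8 units, and all 3 helicases are lowest in WT.

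Near copies of Ddx3x gave little signal at their own loci. Ddx3y, its Y-linked counterpart, stood at 0.0268 units in M, 0.0263 in the library labelled P, 0 in the library labelled MP, 0.0391 in EV and 0.0699 in WT. D1Pas1, the testis copy of the family, was at 0.302 units or less in all libraries. No source used here states how reads shared by such copies were counted, so the Ddx3x level is uncertain to that extent.

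On scaled values, no helicase of the trio was 2-fold apart in any of the 6 comparisons made. On deposited values each was more than 2-fold apart in every comparison except MP over P, as were nearly all DEAD-box genes. The share over all loci on deposited values is not given here. On scaled values it was taken over all single-gene loci kept, which had 1 scaled unit or more in 1 of the compared libraries. The share at least 2-fold apart was 1.03% for M over EV, 2.7% for the library labelled P over EV and 2.55% for the library labelled MP over EV. It was 9.4% for EV over WT, 1.61% for MP over M and 1.12% for MP over P, the last pair both labelled as holding added Prep1. Loci of high level shifted as a whole in some pairs, so the log2 ratios of (level + 1) are read beside the 970 single-gene loci with a mean of 15 units or more. Few of these 970 were 2-fold apart: 1 lower in M over EV, 4 lower in P over EV and 2 lower in MP over EV. In EV over WT 10 were higher, in MP over M 2 were higher, and in MP over P 3 were higher and 1 lower. The lack of a 2-fold ratio in the trio is thus common at this level and not particular to the helicases.

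M set against EV, 2 Prep1-low lines that differ in added Meis1 per the labels, gave small and unlike ratios. Ddx3x stood at 20.8 units in M and 19.0 in EV (log2 0.12), above 84.4% of the high loci, whose median was -0.033. Ddx17 stood at 19.1 in M and 21.6 in EV (log2 -0.17), with 18.0% of the high loci below it. The Ddx5 locus stood at 29.1 in M and 30.6 in EV (log2 -0.069), near the middle of these loci. The ratio of Ddx3x to the other 2 helicases was thus higher in M than in EV.

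The library labelled P had lower values than EV at each of the 3 genes. Ddx3x stood at 14.7 units in it and 19.0 in EV (log2 -0.35), and Ddx17 at 16.9 and 21.6 (log2 -0.34). The Ddx5 locus stood at 28.4 in the library labelled P and 30.6 in EV (log2 -0.10). The 970 high loci had a median of -0.20 and a 10th to 90th percentile range of -0.44 to 0.040, so all 3 helicases lay within the common shift. After quantile normalisation Ddx5 was higher in the library labelled P than in EV (log2 0.24).

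The library labelled MP was close to EV. Ddx17 stood at 23.5 units in it and 21.6 in EV (log2 0.11), the Ddx5 locus at 30.8 and 30.6 (log2 0.012), and Ddx3x at 18.2 and 19.0 (log2 -0.057). With median scaling these ratios were 0.53, 0.44 and 0.36. These 3 comparisons share the EV library.

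EV set against WT, the comparison of Prep1-low with wild-type cells, gave the largest ratios for all 3 helicases on upper-quartile scaling. After quantile normalisation, Ddx17 was at 0.29 here, below its 0.33 for both MP over M and MP over P. Ddx5 was then at 0.061, below its 0.24 for P over EV. Ddx17 stood at 21.6 units in EV and 14.6 in WT (log2 0.54), Ddx3x at 19.0 and 13.5 (log2 0.46), and the Ddx5 locus at 30.6 and 23.9 (log2 0.34). The high loci had a median of 0.30 here and a 10th to 90th percentile range of 0.0092 to 0.58. Relative to that median, Ddx17 was higher in EV by 0.24, Ddx3x by 0.16 and Ddx5 by 0.046.

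Against M, the library labelled MP held Ddx17 at 23.5 units, with 19.1 in M (log2 0.28). This was above 99.3% of the 970 high loci, whose 90th percentile was 0.095. Ddx3x stood at 18.2 in the library labelled MP and 20.8 in M (log2 -0.18), with 11.4% of the high loci below it, although median scaling gave 0.18. The Ddx5 locus stood at 30.8 in the library labelled MP and 29.1 in M (log2 0.081). Ddx17 and Ddx3x thus stood on opposite sides of 0 in this pair, except with median scaling (both above 0) and on deposited values (both below 0).

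The library labelled MP was also set against the library labelled P. Per the labels both held added Prep1 and differed in added Meis1. Ddx17 stood at 23.5 units in MP and 16.9 in P (log2 0.45), above 97.5% of the high loci. Ddx3x stood at 18.2 in MP and 14.7 in P (log2 0.29), and the Ddx5 locus at 30.8 and 28.4 (log2 0.11). The median of the high loci was 0.14, and after quantile normalisation the Ddx5 ratio was -0.13.

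**Figure D2:**
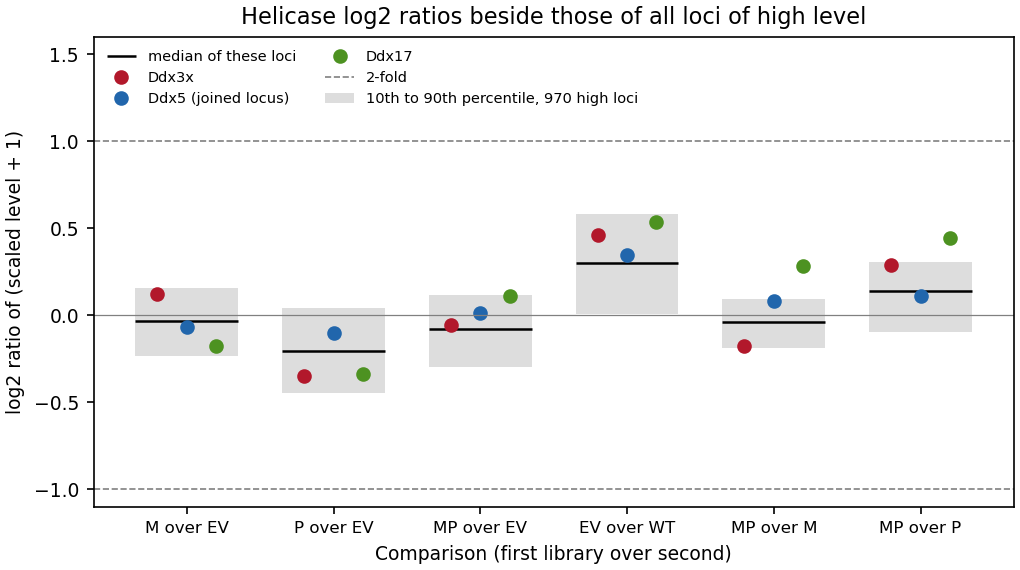
Log2 ratios of (scaled level + 1) in 6 comparisons, first library over second, for Ddx3x, Ddx5 and Ddx17 (points), with the median (line) and 10th to 90th percentile range (grey) of 970 single-gene loci at a mean of 15 units or more. No helicase reaches the dashed 2-fold lines, and Ddx17 lies above the grey range in MP over M (0.28) and MP over P (0.45).

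Ratios between the helicases inside 1 library do not change when all its values are multiplied by 1 factor, as in upper-quartile scaling. Quantile normalisation can change them. Ddx3x over Ddx17, in FPKM as deposited, was 1.09 in M, 0.868 in the library labelled P, 0.776 in the library labelled MP, 0.877 in EV and 0.925 in WT. M was the only one of the 5 libraries in which Ddx3x exceeded Ddx17. Ddx5 over Ddx17 was 1.52 in M, 1.68 in the library labelled P, 1.31 in the library labelled MP, 1.41 in EV and 1.64 in WT. The joined Ddx5 locus led in each library, least in MP. Ddx3x over Ddx5 was 0.713 in M, 0.517 and 0.591 in the libraries labelled P and MP, 0.621 in EV and 0.565 in WT.

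**Figure D3:**
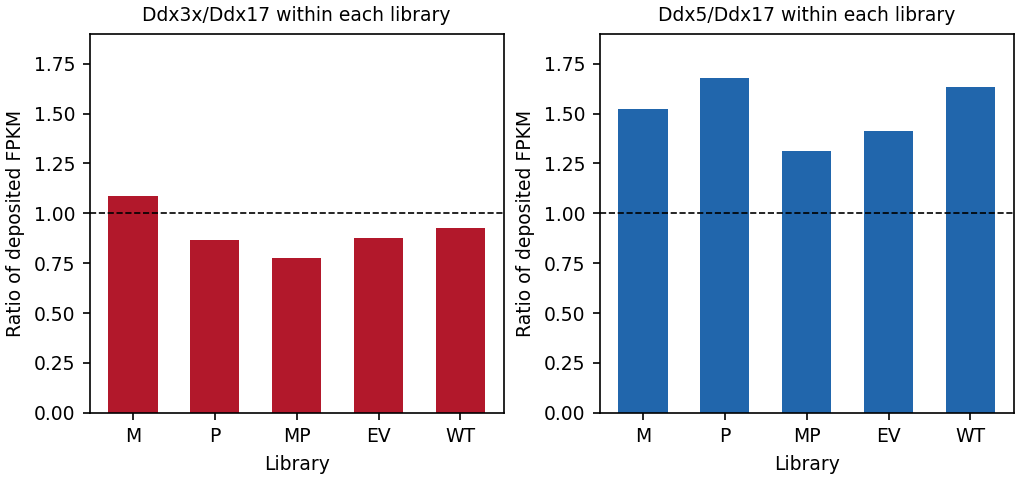
Ratio of deposited FPKM of Ddx3x to Ddx17 (left) and of the joined Ddx5 locus to Ddx17 (right) within each of the 5 libraries, with a dashed line at equality. Ddx3x exceeds Ddx17 only in M (1.09), and Ddx5 exceeds Ddx17 in all 5 libraries, between 1.31 and 1.68.

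The authors' own tests say little on these genes. In the authors' deposited tables Ddx3x and Ddx17 had the status FAIL in all 4 comparisons with EV, with a q-value of 1. Ddx5 also had FAIL against M, a table in which 66.6% of the 970 high loci and 35.3% of all single-gene loci had it. In the other tables FAIL was given to 27.2% to 27.4% of the high loci. The joined Ddx5 locus was marked significant in the authors' deposited tables, higher in EV than in the libraries labelled P and MP and than in WT, each with a q-value of 0. The same call in the same direction was made at 98.9%, 99.1% and 97.4% of the loci with the status OK, so it follows the overall level of EV. The EV columns of the 4 tables differed at each helicase by the same factors, 1.10 in the table of P, 0.971 or 0.972 in that of MP and 1.12 in that of WT, relative to that of M.

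The other DEAD-box genes were counted by symbol. The tables held 37 DEAD-box genes at single-gene loci, Ddx3x and Ddx17 among them. Another 5 were at joined loci, including Ddx5 and the translation initiation helicases Eif4a1 and Eif4a2. The symbol (Ddx and a number, Eif4a1, Eif4a2, Eif4a3 or D1Pas1) was the only criterion. The protein sequences were not checked, so some of these genes may lack the DEAD motif. Of the 37, 33 passed the level filter in each comparison. None was 2-fold apart in any comparison with M or the libraries labelled P and MP, where 1.03% to 2.7% of all single-gene loci kept were. Among the high loci, 2-fold ratios were rarer than that, as given above. In EV over WT 1 gene was, beside 9.4% of all single-gene loci kept. That gene was Ddx60, an interferon-induced helicase, at 3.53 units in EV and 0.303 in WT (log2 1.80). The median log2 ratio of the 33 was -0.081 for M over EV, -0.23 for P over EV, -0.079 for MP over EV, 0.33 for EV over WT, -0.0060 for MP over M and 0.13 for MP over P. Over all loci kept it was -0.0041, -0.040, -0.044, 0.051, -0.025 and 0.017 in the same order, and over the high loci -0.033, -0.20, -0.080, 0.30, -0.037 and 0.14.

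Within the family, Ddx25, a helicase of testis, had the highest ratio for M over EV (0.57, at 2.12 units in M and 1.10 in EV). Ddx50, a nucleolar helicase, followed at 0.25 and Ddx19b, of mRNA export, at 0.20. Ddx39, an mRNA export helicase, had the lowest ratio for the library labelled P over EV (-0.62, at 10.5 and 16.6 units), followed by Ddx1 (-0.57) and Ddx60 (-0.56). Ddx1 and Ddx39 also stood next to Ddx60 at the top for EV over WT, at 0.71 and 0.68. At the other end of that comparison were Ddx25 (-0.73), Ddx26b (-0.62) and Ddx55 (-0.29). Ddx17 had the highest ratio of the 33 genes for MP over M (0.28), ahead of Ddx39 (0.20) and Ddx27 (0.20), and for MP over P came next after Ddx39 (0.51) and Ddx1 (0.49). For MP over EV, Ddx17 came next after Ddx25 (0.28) and Ddx50 (0.17), and Ddx58, the viral RNA sensor RIG-I, was lowest (-0.41). The related DEAH-box helicases, 16 genes all kept, had no member 2-fold apart in any comparison, with medians between -0.068 and 0.24. The share over all single-gene loci kept was 1.03% to 9.4%, by comparison.

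**Figure D4:**
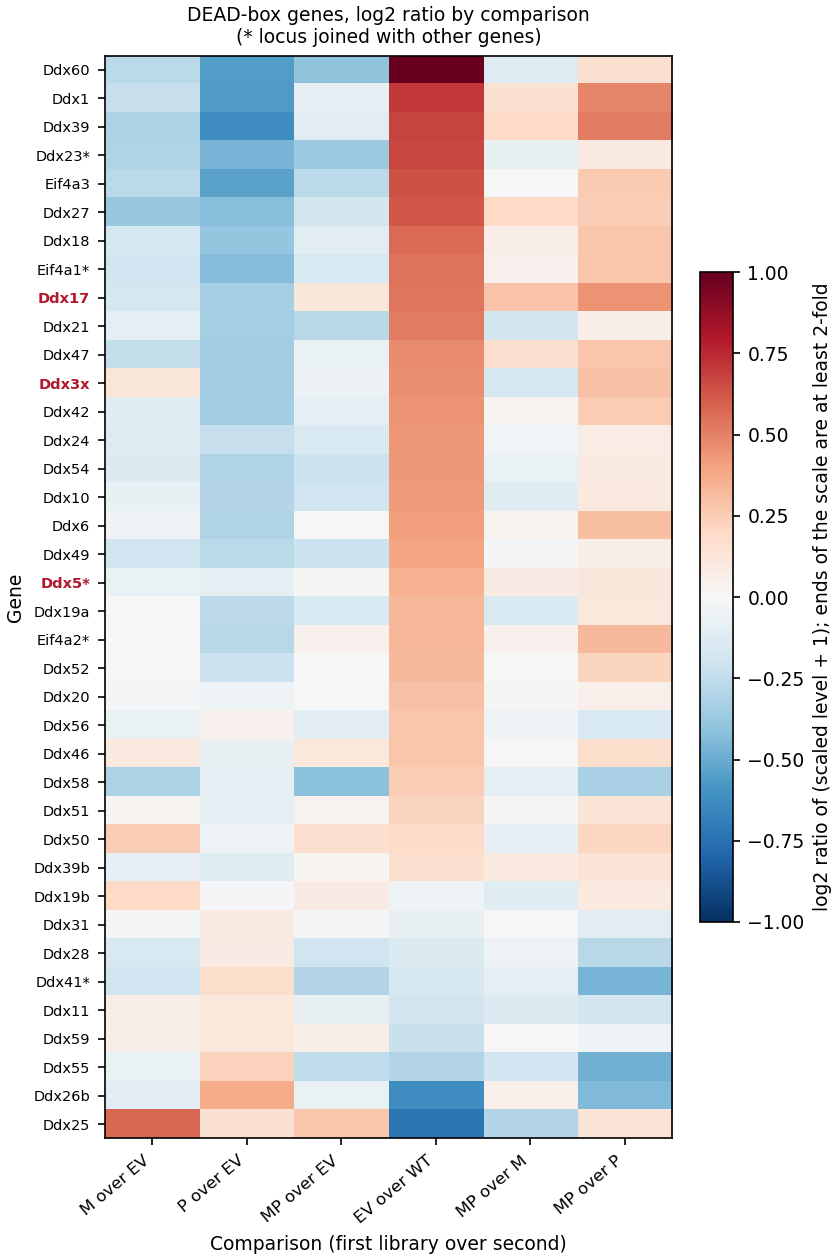
Log2 ratios of (scaled level + 1) for 38 DEAD-box loci at 1 unit or more in some library, 5 of them joined with other genes (asterisk), in 6 comparisons with the first library over the second, sorted by EV over WT. Red is higher in the first library and blue lower. Ddx60 is the only gene at least 2-fold apart (1.80 in EV over WT, where 9.4% of all single-gene loci kept were 2-fold apart). Ddx17, in bold with Ddx3x and Ddx5, has the highest value of the 38 loci in MP over M (0.28).

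Genes of the complexes in which these helicases act were described in the same way. Of 13 loci of p68 and p72 partners found, 11 or 12 passed the filter in each comparison, and none was 2-fold apart except in EV over WT. Of the 12 kept in that comparison, 1 was at least 2-fold higher in EV and 1 lower. Over all single-gene loci kept, 9.4% were 2-fold apart in it. There Ctnnb1 (beta-catenin) stood at 15.2 units in EV and 6.11 in WT (log2 1.19), and Esr1 (estrogen receptor alpha) at 0.648 and 2.98 (log2 -1.27). Ctnnb1 also stood at 7.71 in the library labelled P, against 15.2 in EV (log2 -0.89). Drosha, the nuclear microRNA processing enzyme, stood at 15.1 in M, 12.8 in the library labelled P, 15.2 in the library labelled MP, 17.5 in EV and 11.5 in WT. Drosha was lowest in WT, as Ddx17 was, but highest in EV, whereas Ddx17 was highest in the library labelled MP.

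Among 12 loci of Ddx3x partners and pathway genes, 1 was 2-fold apart in any comparison. This was Ifih1 in EV over WT, where 9.4% of all single-gene loci kept were 2-fold apart. Ifih1, the viral RNA sensor MDA5, stood at 11.4 units in EV and 2.50 in WT (log2 1.83). Csnk1e, the casein kinase that DDX3X activates in human cells, stood at 18.5 in M, 21.9 in the library labelled P, 20.2 in the library labelled MP, 21.1 in EV and 19.0 in WT. Cdkn1a, the cell cycle inhibitor p21, stood at 5.28 in M, 3.00 in the library labelled P, 5.09 in the library labelled MP, 3.41 in EV and 5.48 in WT. The 10 loci of the exon junction and translation initiation list had no member 2-fold apart in any comparison, with medians from -0.33 for P over EV to 0.45 for EV over WT. Over all single-gene loci kept, 1.03% to 9.4% were 2-fold apart, by comparison.

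The profiles of the 3 helicases over the 5 libraries were compared with those of 7830 single-gene loci at 5 units or more in every library. Likeness was measured as the largest difference between log2 profiles centred on their means, so a small value means a like pattern. Nearest to Ddx3x were Hist1h2bk (0.031), Zfp207 (0.042), Ppp2ca (0.044), Whsc1 (0.047) and Smc3 (0.047). Nearest to the Ddx5 locus were 9530068E07Rik, Hk2, Ccl7, Vdac2 and Naa20, between 0.028 and 0.035. Nearest to Ddx17 were Arcn1 (0.023), Fam120a (0.048), Chmp1a (0.054), Hspb8 (0.058) and Mak16 (0.061). The helicases were less like each other than this, at 0.19 between Ddx5 and Ddx17, 0.24 between Ddx3x and Ddx5 and 0.26 between Ddx3x and Ddx17. The nearest 5 were picked as the smallest differences, so a pair chosen by name will mostly be less alike. In likeness to Ddx17 the Ddx5 locus would come 877th and Ddx3x came 2686th. In likeness to the Ddx5 locus Ddx17 came 3340th and Ddx3x 4576th. In likeness to Ddx3x the Ddx5 locus would come 2815th and Ddx17 came 3283rd. With 5 libraries, such likeness describes these libraries only.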

How the data were processed

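Total RNA of 5 MEF cultures was sequenced, 1 library each for M, P, MP, EV and WT, as grouped by the labels. The authors deposited 4 tables of FPKM values per locus, each setting EV against 1 other library. Alignment and estimation used TopHat, Cufflinks and Cuffdiff on mm9, per the submitters' processing notes; versions, annotation and normalisation are not given in the sources used here. Each table's p-value and q-value come from the authors' test between its libraries, with q under 0.05 marked significant. No counts were given. At loci without a symbol the commonest ratio to MP was shared by 242 of 11244 loci or fewer, so reads were not recovered and depth is unknown. Of the loci that set the scale, 0.224% were listed at 0 in EV and 7.24% in M. The share was 19.8% in WT, 22.2% in the library labelled P and 25% in the library labelled MP.

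Levels were scaled per library to an upper quartile of 10, with EV from the table of M. Differences are log2 of (level + 1), called at 2-fold, which understates changes of low genes. Across-table ratios join separately normalised tables. Upper loci are compressed: the 99th percentile was 1.75 to 2.10 times the upper quartile. For a symbol with several loci the highest was used. Members, lists and comparisons were chosen with earlier results of these data known. The named family genes were mostly the 3 highest and 3 lowest of a comparison. Promoter windows (RefSeq, GRCm38.p6) carry coordinates of that build only. Scaling was tested on simulated libraries, each the MP profile times a constant, with changes set at some loci of M. Shifts that depend on level were not simulated, so the test does not cover them. Python 3.11.15, numpy 2.4.6, pandas 2.3.3 and matplotlib 3.10.9 were used.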

Additional observations from a re-analysis of the deposited data

Results flagged for a closer look

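Ddx17 ratios had opposite signs where the same factor was added, per the labels, in different lines. For Prep1, the log2 ratio was -0.34 for the library labelled P over EV and 0.28 for the library labelled MP over M. For Meis1, it was -0.17 for M over EV and 0.45 for MP over P. The difference between these ratios, which is the same for either factor, was 0.62. It was 0.95 with median scaling, 0.47 after quantile normalisation and 0.45 relative to the median of the 970 high loci. Over those loci its median was 0.15 and its 90th percentile 0.41, and 98.1% lay below Ddx17. The signs alone are common: 269 of the 970 loci (27.7%) had P below EV and MP above M. The signs of the 4 ratios held under median scaling and quantile normalisation, but on deposited values P over EV (-4.19) and MP over M (-5.08) were both below 0. The difference was not tested, since each ratio rests on 1 library against 1. Pknox1 stood below EV in the libraries labelled P and MP, and its part in this was not tested.

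The Ddx5 locus also changed sides, with -0.10 for P over EV and 0.081 for MP over M, and -0.069 for M over EV and 0.11 for MP over P. The same signs for Prep1 were seen at 27.7% of the high loci. The difference between these ratios was 0.18, near the median of 0.15 over the high loci, and 0.017 relative to their medians. It was not tested, and after quantile normalisation P over EV was 0.24 and MP over P was -0.13.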

How the results depend on the processing

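No paired analysis was possible because each group held 1 library. A ratio was counted as moved where it changed by more than 0.2 (log2). Setting the scale on loci at 5 FPKM or more moved no result, and no filter on low values moved no family count. As deposited, without scaling, ratios give the level of the whole library. For M over EV they were 1.57 for Ddx3x, 1.37 for Ddx5 and 1.26 for Ddx17. For P over EV they were -4.19, -3.97 and -4.19, for MP over EV -3.97, -3.93 and -3.82, for EV over WT 4.27, 4.17 and 4.35, and for MP over M -5.54, -5.30 and -5.08. On these values 33, 36, 36, 36 and 37 of the 37 DEAD-box genes at single-gene loci were 2-fold apart in the same comparisons. The share over all loci on deposited values is not given here, so these counts say nothing particular to the family. With median scaling, the ratios of Ddx3x, Ddx5 and Ddx17 were 0.36, 0.44 and 0.53 for MP over EV, 0.78, 0.67 and 0.86 for EV over WT, 0.18, 0.45 and 0.65 for MP over M, and 0.67, 0.50 and 0.83 for MP over P. The median of the libraries lies among low loci, between 1.06 and 1.82 units. After quantile normalisation Ddx3x was at -0.14 for P over EV and 0.20 for EV over WT, Ddx5 at 0.24 for P over EV, 0.061 for EV over WT and -0.13 for MP over P, and Ddx17 at 0.29 for EV over WT. Relative to the median of the high loci, an alternative chosen after seeing the data, the ratios of Ddx3x, Ddx5 and Ddx17 were -0.14, 0.10 and -0.13 for P over EV and 0.16, 0.046 and 0.24 for EV over WT. The family count for EV over WT was 1, but 2 with median scaling, with a pseudocount of 0.1 and relative to the high loci, and 0 with genes kept at 5 units or more. The cause of these moves was not tested. Without counts or replicates, no interval bounds any of these values.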

Other observations

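Genes of the sex chromosomes were looked at because Ddx3x and Ddx3y are such a pair; they were picked once the values were known. The Y-linked genes Kdm5d and Eif2s3y stood at 0.252 units or less in all 5 libraries, and Uty between 0.463 and 1.26. Xist, the RNA of the inactive X chromosome, stood at 14.0 units in M, 12.5 in the library labelled P, 12.6 in the library labelled MP, 13.0 in EV and 11.9 in WT. Eif2s3x, like Ddx3x an X-linked gene with a Y-linked counterpart, stood at 20.3 in M, 12.6 in the library labelled P, 20.1 in the library labelled MP, 20.8 in EV and 12.4 in WT. Eif2s3x was thus low in the libraries labelled P and WT, as Ddx3x was. The high loci shifted the same way, with medians of -0.20 for P over EV and 0.30 for EV over WT. Ddx17, which is not X-linked, was also lowest in these libraries, so the pattern is not particular to such pairs. Eif2s3x itself was at -0.68 for P over EV and 0.71 for EV over WT. Kdm6a, another such gene, stood at 17.4 in M, 13.6 in the library labelled P, 15.7 in the library labelled MP, 14.7 in EV and 12.8 in WT. Kdm5c stood at 14.7 in M, 13.0 in the library labelled P, 14.6 in the library labelled MP, 16.2 in EV and 11.6 in WT.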
